A study of Arabidopsis thaliana with 15 samples.

Results

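The light rise and the light drop were compared 15 min after each change: the R15 leaves, which had been back at growth light for 15 min, were set against the HL15 leaves, which had received high light (HL) for 15 min. The members are the 3 R15 and the 3 HL15 libraries, 6 of the 15 in the series, and the 20512 of 21593 listed genes whose normalized counts summed to 10 or more over all 15 libraries. All plants were wild-type Arabidopsis thaliana of the Col-0 ecotype, grown for 6 to 7 weeks in an 8 h photoperiod at growth light (GL) of 100 μmol photons per square meter and second, and leaf RNA was sequenced with 3 replicates per group. HL15 and HL60 leaves were taken at 1000 μmol photons, after 15 and 60 min. R15 leaves came from plants that were given the 60 min of HL and were then placed at 100 μmol photons for 15 min. R15 and HL15 thus differed in the light at harvest, in the length of the HL exposure (60 against 15 min) and in the time since the start of the experiment, and these cannot be told apart in their comparison. The HL60 and GL libraries, which stand at the start of the drop and of the rise, are therefore given beside the values of the 2 groups for many of the genes named.

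Leaves in strong light absorb more energy than photosynthesis can use, which gives rise to reactive oxygen species (ROS) and can warm the leaf. Class A heat shock factors are known to bind heat shock elements and to switch on chaperone genes within minutes, and their targets are also known to respond to HL. A fall of the light is a change in its own right for a leaf: phytochromes, cryptochromes and chloroplast redox signals are all known to report it.

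In the 6 libraries, normalized counts summed to 18929642 to 20619828, and the number of reads estimated from the smallest step between the values was 15746829 to 28102722. The HL15 libraries were uneven. Among 12135 genes with whole reads, replicates were compared over the genes with 20 or more reads in the pair. The chi-square per gene between HL15 replicates 2 and 3 was 1.53 (9031 genes). It was at least 3.82 in the other 11 pairs of GL, HL15, HL60 and R15 replicates, so HL15 replicates 2 and 3 were nearly alike. They differed by more than sampling noise and were kept as 3, but the values do not show whether they came from separate plants, and if they did not, HL15 holds 2 independent samples. Averaged as 1, a choice made after seeing the data, they left 2271 genes higher and 1525 lower in R15, and 17 of the 290 genes checked lost their call, KAT1 and XCP1 among them. Of 12409 genes with an HL15 mean of 100 or more, replicate 1 was at least 2-fold above both others for 60 and at least 2-fold below both for 167, whereas replicates 2 and 3 were that far apart for 3. HL60 replicate 1 was far below the other HL60 libraries for several jasmonate genes. Results that rest on HL15 replicate 1 are given with and without it. The 5 mesophyll markers summed to 1084520 to 1210690 normalized counts in HL15 and to 1114860 to 1139540 in R15, and none of them passed the test. The 5 guard cell markers summed to 520 to 633 in HL15 and to 1028 to 1203 in R15, where KAT1 and HT1 were called higher, the 4 xylem markers to 187 to 200 and 234 to 360, with XCP1 and CESA7 called higher, and the 3 epidermis markers to 7806 to 9601 and 5671 to 7480, with none called. None of the 5 phloem markers (6820 to 7260 and 5445 to 6223), of the 2 markers of dividing cells (17.0 to 32.1 and 26.0 to 37.6) and of the root markers, of which 1 was tested (at most 7.52 counts in any of the 6 libraries), was called. HT1, KAT1 and XCP1 each lost their call when a single library was left out, HT1 without HL15 replicate 1 or 3 or R15 replicate 1 (log2 fold change 0.90 to 0.98), KAT1 without HL15 replicate 2 or 3 (0.98 and 0.99) and XCP1 without HL15 replicate 2 or 3 or R15 replicate 1 or 2 (0.95 to 1.12). The part of these shifts in the results was not tested. In such bulk samples, fewer cells of a type and less RNA per cell cannot be told apart.

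Of the 20512 genes, 4207 (20.5%) differed between R15 and HL15, at a Benjamini-Hochberg adjusted p under 0.05 from limma and a change of at least 2-fold. A total of 2524 genes (12.3%) were higher and 1683 (8.2%) were lower in R15. With upper quartile scaling the split was 2327 higher and 1869 lower, so that the share of higher genes went from 60.0% to 55.5%, and with quantile normalization it was 2194 and 1906 (53.5%). Changes of at least 4-fold were found for 832 higher and 470 lower genes, and of at least 32-fold for 43 and 44. The lowest value of one group was above the highest value of the other for 12178 genes (59.4%). Without HL15 replicate 1 there were 2478 higher and 1694 lower genes. The median log2 fold change of all genes was 0.02. All log2 fold changes are differences of log2(normalized count + 1), R15 minus HL15 unless stated, and understate the change of genes with few counts. The smallest p that permuting 3 against 3 libraries allows is 0.1, so no exact test is given for a gene. The plot of the gene lists gives the called members of each of 36 lists of functionally related genes.

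**Figure D1:**
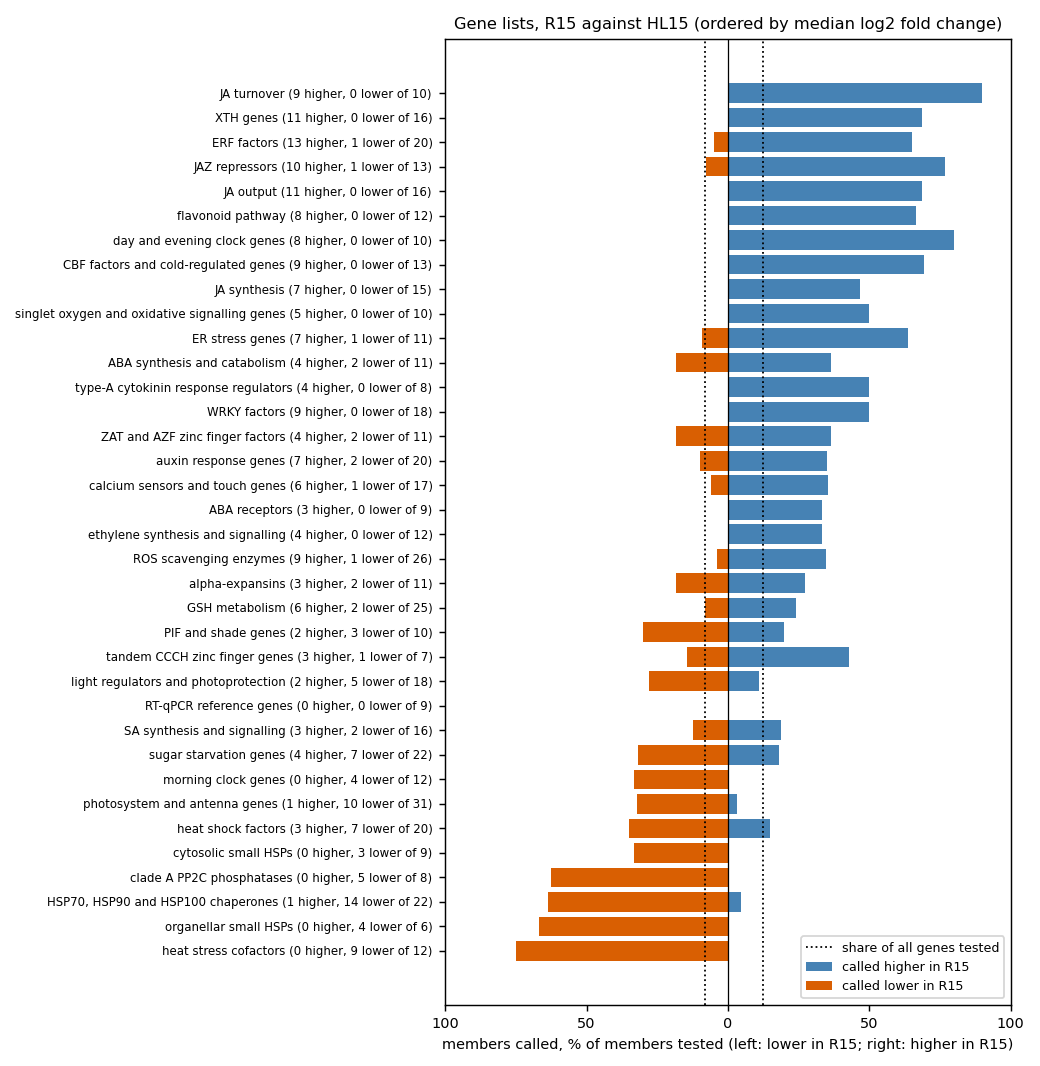
Called members of 36 gene lists, as a percentage of the members tested, with those higher in R15 to the right (blue) and those lower in R15 to the left (orange), ordered by the median log2 fold change of the list. Dotted lines mark the shares over all 20512 genes, 12.3% higher and 8.2% lower. Jasmonate turnover, XTH, ERF and JAZ lists stand at the top, and heat stress cofactors, organellar small HSPs and large chaperones at the bottom.

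The largest falls were those of heat genes. Among genes whose groups did not overlap and whose mean over the 6 libraries was at least 100, 7 of the 10 largest falls were those of heat shock factors, their coregulators or chaperones. HSFA2 (AT2G26150, chromosome 2, 11135624 to 11137792 of TAIR10.1), a heat shock factor that is itself induced by heat, was at 38233, 22243 and 22258 normalized counts in HL15 and at 45.3, 104 and 40.3 in R15. All R15 values lay below the GL values of 161, 122 and 112, and the HL60 values of 794, 2615 and 1592 lay between. The fall was -8.83 on the log2 scale (SE 0.46, adjusted p = 6.37e-09, limma with Benjamini-Hochberg adjustment). HSFA7A, another class A factor, was at 5834, 1898 and 1781 in HL15 and at 2.01, 2.47 and 3.22 in R15, a log2 fold change of -9.58 (SE 0.51). The largest log2 fold change, -9.69, was that of AT1G71000, annotated as a chaperone of the DnaJ domain superfamily, at 5929, 1756 and 1692 against 2.08, 3.84 and 1.11. In HL60 HSFA7A was at 38.6, 95.2 and 61.2 and AT1G71000 at 125, 548 and 488, between HL15 and R15. Without HL15 replicate 1, which had the highest value, it was -9.09.

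MBF1C, a transcriptional coactivator of the heat response, fell from 25680, 15725 and 15615 in HL15 to 84.9, 60.4 and 40.1 in R15 (log2 fold change -8.26), which was below its GL values of 469 to 559. HSP101 (chromosome 1, 27936508 to 27940369), the disaggregase that resolves heat-clumped proteins, was at 109773, 55126 and 55137 in HL15 and at 328, 274 and 198 in R15 (-8.05). BAG6, a calmodulin-binding co-chaperone, was at 74635, 40645 and 40984 against 131, 223 and 241 (-8.02). For all 3 genes the groups were far apart, and HL15 replicate 1 was the highest library. In HL60 MBF1C was at 936, 3829 and 2466, HSP101 at 2001, 10719 and 4561 and BAG6 at 640, 2843 and 2402, which was below every HL15 and above every R15 library. AT1G14200 and AT1G26800, both annotated as RING/U-box proteins, fell with log2 fold changes of -8.92 and -8.90, and AT1G59860, a cytosolic small HSP, fell with -8.13. AT1G26800 had no counts in R15 replicate 3, without which its value was -8.10. The remaining gene of the 10 was AT3G10113, a homeodomain-like protein with 0, 0 and 37.6 counts in R15 (-7.62). It shares 87.0% of its stretches of 31 bases with another gene's RNA, so its counts are uncertain, and its log2 fold change moved between -6.75 and -9.38 when single R15 libraries were left out.

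The 200 bases before the annotated start of 4 of these genes are shown because they hold the heat shock element GAANNTTC, which is the same on both strands. It is in capitals, and the sequences are those of RefSeq for TAIR10.1, read along the strand of the gene, at chr2:11135424-11135623 (plus) for HSFA2, chr3:19264941-19265140 (plus) for HSFA7A, chr2:18985933-18986132 (plus) for BAG6 and chr1:26770178-26770377 (minus) for AT1G71000.
HSFA2: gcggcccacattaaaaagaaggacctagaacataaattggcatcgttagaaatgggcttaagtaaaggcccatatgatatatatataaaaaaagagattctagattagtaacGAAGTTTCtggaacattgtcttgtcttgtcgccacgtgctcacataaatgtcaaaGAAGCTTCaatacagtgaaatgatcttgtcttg
HSFA7A: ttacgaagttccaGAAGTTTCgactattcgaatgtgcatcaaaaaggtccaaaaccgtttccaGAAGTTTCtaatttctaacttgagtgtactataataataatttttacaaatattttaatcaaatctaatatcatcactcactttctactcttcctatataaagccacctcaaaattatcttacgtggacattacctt
BAG6: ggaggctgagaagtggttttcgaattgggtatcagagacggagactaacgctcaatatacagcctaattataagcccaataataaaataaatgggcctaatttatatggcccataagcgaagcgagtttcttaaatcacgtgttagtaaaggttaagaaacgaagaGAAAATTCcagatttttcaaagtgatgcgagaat
AT1G71000: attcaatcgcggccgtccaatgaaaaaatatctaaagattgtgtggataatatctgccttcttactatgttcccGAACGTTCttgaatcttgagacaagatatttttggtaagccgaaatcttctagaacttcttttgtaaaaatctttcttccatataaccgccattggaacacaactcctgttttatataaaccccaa
HSFA2 and HSFA7A hold the motif 2 times in these windows and the others 1 time. In windows from 250 bases before to 50 after the start, the motif was present in 27.3% of the 44 genes that were at least 32-fold lower in R15, in 13.4% of all genes called lower that have such a window and in 11.6% of the 20337 tested genes that have one. It was in 14.0% of the 43 genes at least 32-fold higher in R15 and in 11.2% of all genes called higher. These shares were not tested. A match is a description of the letters and does not show that a factor binds there.

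Heat shock factors did not move as 1 group. Of the 20 tested, 7 fell and 3 rose, with a median log2 fold change of -0.61. HSFB2B, HSFB2A and HSFB1 were lower in R15, with log2 fold changes of -6.92, -3.39 and -2.67. HSFA7B had no count in any R15 library and 63.4, 6.10 and 8.48 in HL15, so it was at least 8.66-fold lower against a floor of 3 counts per library, a bound that rests mainly on HL15 replicate 1. Without that replicate its log2 fold change of -4.03 was -3.04, and without HL15 replicate 2 it was -4.63. HSFA3, a factor downstream of DREB2A, rose from 27.0, 47.2 and 36.0 to 108, 144 and 109 (log2 fold change 1.71), and HSFA8 and HSFC1 rose by 1.40 and 1.38. The HSFA1 factors, which are present before stress and start the heat response, did not pass the test, with values from -0.90 for HSFA1D to 0.05 for HSFA1B. Of 12 heat stress cofactors 9 fell and none rose (median -3.15), among them FES1A (-6.37), DREB2A (-6.25) and HOP3 (-4.92).

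Large chaperones fell as well, 14 of 22 against 1 that rose, with a median log2 fold change of -1.57. HSP90.1, the heat-inducible cytosolic HSP90, was at 97426, 64752 and 64134 in HL15 and at 1123, 1239 and 784 in R15 (-6.17), which is near its GL range of 703 to 887, and in HL60 at 7886, 29346 and 12791. HSP70B fell by 6.04 and HSP70T-2 by 5.57 on the log2 scale, and CLPB4, the mitochondrial relative of HSP101, by 4.31. Without HL15 replicate 1, where HSP70B stood at 16704 against 2293 and 2153 in the other HL15 libraries, its log2 fold change was -5.07. The constitutive plastid chaperones cpHSC70-1 and HSP90.5 did not pass the test, at 0.21 and 0.36. The mitochondrial mtHSC70-1 went the other way: it was at 1580, 1275 and 1268 in HL15 and at 3600, 3973 and 3894 in R15 (log2 fold change 1.48, SE 0.12, limma adjusted p = 2.46e-07). HSP90.2, HSP90.3 and HSP90.4 share 29.0% to 35.8% of their stretches of 31 bases with another gene, so reads may have been split among them.

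Small HSPs were divided. Of the 9 cytosolic ones 3 fell, namely AT1G59860, AT1G07400 (-5.33) and HSP17.6A (-4.75), whereas the remaining 6 did not pass the test. HSP17.6II was at 20336, 8908 and 8794 in HL15, at 8951, 27160 and 14116 in HL60 and at 7818, 4601 and 5303 in R15, a log2 fold change of -1.02 (95% interval -2.14 to 0.10). In GL it was at 35.9 to 51, so its R15 libraries stayed far above GL, whereas those of HSFA2 and HSP101 were below GL. HSP17.6C was at 15449, 3364 and 3362 in HL15 against 5094, 2267 and 2885 in R15 (-0.80, 95% interval -2.51 to 0.92). The groups also overlapped for HSP18.2 (-0.44, interval -2.90 to 2.01) and HSP17.4A (-0.66, interval -1.99 to 0.67). The median of the 9 was -0.93.

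Of the 6 small HSPs of organelles, 4 fell (median of the list -2.36): AT5G37670 (-7.01, and -6.24 without HL15 replicate 1), HSP26.5 (-5.06), AT5G51440 (-2.25) and HSP23.6 (-2.11). HSP26.5 was at 862, 61.4 and 45.5 in HL15 and at 8.11, 0 and 6.35 in R15, and its log2 fold change was -3.73 without HL15 replicate 1, -5.84 without HL15 replicate 3 and -4.05 without R15 replicate 2. HSP23.6 lost its call without HL15 replicate 1 (-1.27, limma adjusted p = 0.205), R15 replicate 2 (adjusted p = 0.123) or R15 replicate 3 (adjusted p = 0.111). The plastid HSP21 was at 711, 51.5 and 49.9 in HL15 and at 42.1, 8.66 and 25.8 in R15, with no overlap, but with an interval of -5.16 to 0.22 it did not pass. HSP22 of the endoplasmic reticulum (ER) was at 2495, 52.9 and 58.4 against 165, 21.0 and 54.8 (-1.76, interval -5.24 to 1.71). For both genes HL15 replicate 1 stood far above the other HL15 libraries.

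**Figure D2:**
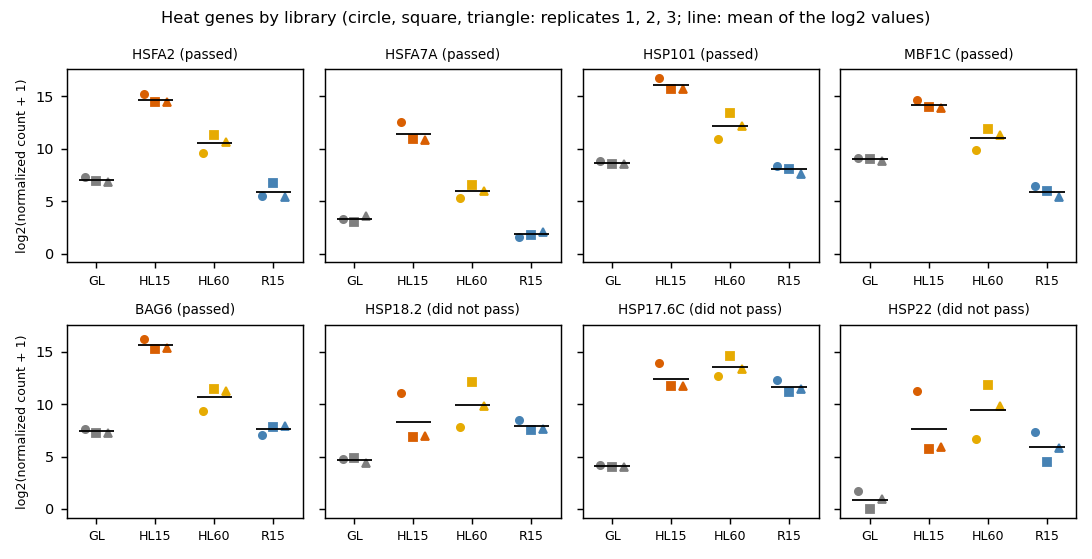
log2(normalized count + 1) of 8 heat genes in each GL, HL15, HL60 and R15 library, with 3 replicates per group as circle, square and triangle and a line at the mean of the log2 values. HSFA2, HSFA7A, HSP101, MBF1C and BAG6 passed the test and were in R15 near or below their GL libraries, whereas HSP18.2, HSP17.6C and HSP22 did not pass and were above GL in every R15 library, with HL15 replicate 1 above the others.

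Of 11 ER stress genes 7 were higher and 1 was lower in R15 than in HL15, with a median log2 fold change of 1.23. In the drop itself, R15 against HL60, none of the 11 was higher and 2 were lower, with a median of -0.60. Of all genes tested, 5.97% were higher and 3.73% lower in the drop. CNX1, the lectin chaperone calnexin, was at 4140, 2872 and 2727 in HL15 and at 16528, 12491 and 11876 in R15 (2.08, SE 0.17), BIP2, the HSP70 of the ER, was 1.95 higher and SHD, the HSP90 of the ER, 1.37 higher. In HL60 CNX1 was at 19019, 25065 and 17981, above every R15 library, and BIP2 at 18488, 24954 and 16239. The ER stress factor bZIP60 was 0.68 higher on the log2 scale, under the 2-fold minimum. ERDJ3A, a DnaJ protein of the ER, fell from 6928, 2625 and 2676 to 83.2, 89.0 and 41.9 (-5.73). BIP1 and BIP2 share 35% and 38% of their stretches with another gene, and their counts are uncertain.

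The 10 largest rises, by the same rule, were in AT2G38790, AT1G50040, AT5G61590, DREB26, PHI-1, BSMT1, AT2G38240, TPS03, GPT2 and CYP82G1. AT2G38790, a protein of unknown function, had no count in any HL15 or HL60 library and 298, 271 and 133 in R15, so it was at least 78-fold higher against a floor of 3 counts per library. AT5G61590, an AP2/ERF transcription factor (chromosome 5, 24764256 to 24765511), was at 5.22, 10.2 and 3.77 in HL15, at 0, 1.09 and 4.22 in HL60 and at 459, 1088 and 947 in R15 (log2 fold change 6.82, SE 0.60, limma adjusted p = 6.87e-07). In GL it was at 274, 280 and 283, so it was low in both HL groups and above GL in each R15 library.

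PHI-1, a gene of the phosphate-responsive family (chromosome 1, 12851983 to 12853235), was at 5.96, 23.0 and 29.2 in HL15, at 0.99, 0 and 3.17 in HL60 and at 664, 2127 and 4344 in R15 (6.74, SE 0.90). The AP2/ERF factor DREB26 was at 3.73, 6.78 and 3.77 in HL15 and at 238, 653 and 1413 in R15 (6.75). AT1G50040, annotated as a DUF1005 protein, was at 2.24, 2.03 and 0.94 against 261, 486 and 671 (7.37). In HL60 DREB26 was at 7.92, 7.66 and 2.11 and AT1G50040 at 0, 2.19 and 12.7. In these genes R15 replicate 1 was the lowest R15 library, but every R15 library was far above every HL15 library. The log2 fold change of PHI-1 was 6.09 without HL15 replicate 1, 7.47 without R15 replicate 1 and 6.11 without R15 replicate 3, and that of DREB26 was 7.42 and 6.14 without R15 replicates 1 and 3.

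GPT2, the glucose 6-phosphate translocator of the plastid envelope, was at 20.1, 21.0 and 22.6 in HL15 and at 1455, 1533 and 1324 in R15 (6.01, SE 0.30). Its HL60 values of 1396, 2181 and 1744 were as high, so its difference from HL15 was already there at the end of the HL exposure. BSMT1, a salicylate and benzoate methyltransferase, was at 0.75, 2.71 and 1.88 in HL15, at 0, 653 and 1253 in HL60 and at 453, 409 and 120 in R15 (6.74, SE 1.88). AT2G38240, a 2-oxoglutarate-dependent oxygenase, and the monoterpene synthase gene TPS03 rose by 6.33 and 6.13, and CYP82G1, a cytochrome P450 of homoterpene synthesis, by 5.99. In HL60 AT2G38240 was at 1.98, 240 and 377, TPS03 at 44.6, 176 and 526 and CYP82G1 at 6.99, 427 and 1192, so HL60 replicate 1 was the lowest for each, and none of the 3 genes passed the test against HL60. The log2 fold change of TPS03 was 5.25 without HL15 replicate 1, and that of BSMT1 was 7.35 without R15 replicate 3.

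Among genes of cell wall remodelling, most XTH genes rose. Of 16 XTH genes, whose products cut and rejoin xyloglucan in the cell wall, 11 rose and none fell, with a median log2 fold change of 2.97. In HL15 against GL 6 of the 16 were lower and none higher (median -1.18, 4.66% of all genes lower). In R15 against HL60 7 were higher and none lower (median 1.73, 5.97% of all genes higher). TCH4, the touch-induced XTH22 (chromosome 5, 23307006 to 23308680), was at 85.7, 256 and 258 in HL15, at 188, 29.5 and 45.4 in HL60 and at 5238, 8890 and 16506 in R15 (5.68, SE 0.73, limma adjusted p = 2.17e-05). XTH25 rose from 6.71, 9.49 and 15.1 to 139, 475 and 798 (5.11, and 5.82 without R15 replicate 1, the lowest). XTH16 rose by 4.14. XTH23 rose by 3.87, which was 4.49 without R15 replicate 1 and 3.05 without R15 replicate 3. XTH33 had no count in any HL15 or HL60 library and 3.01, 23.5 and 83.8 in R15, at least 12.3-fold higher against the floor of 3 counts per library, a bound that rests mainly on R15 replicate 3. Its log2 fold change of 4.34 was 5.51 without R15 replicate 1 and 3.31 without R15 replicate 3.

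Among 17 calcium sensors and touch genes 6 rose and 1 fell (median 0.74). Of the 17, 8 were higher and none lower in HL15 than in GL, where 4.79% of all genes were higher. In R15 against HL60 9 were higher and none lower, with 5.97% of all genes higher. CML38, a calmodulin-like protein, was at 35.3, 85.1 and 130 in HL15 and at 550, 1408 and 1906 in R15 (3.94), and TCH2, another calmodulin-like protein, at 484, 1120 and 1183 against 1903, 2063 and 2750 (1.36). In HL60 CML38 was at 8.97, 53.4 and 123 and TCH2 at 464, 329 and 254, below every R15 library. Without HL15 replicate 1 TCH2 was at 0.94, under the 2-fold minimum, and 3 genes of the list fell in place of 1. AT3G47480, an EF-hand calcium-binding protein, fell by 2.73. TCH3 (-0.07) did not pass. Of 11 alpha-expansins, which loosen the wall, 3 rose and 2 fell (median 0.25): EXPA10 was at 40.3, 24.4 and 20.8 in HL15 and at 848, 1124 and 1424 in R15 (5.29), while EXPA8 was at 680, 290 and 310 against 23.1, 21.0 and 11.8 (-4.38). In HL60 EXPA10 was already at 106, 752 and 984.

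**Figure D3:**
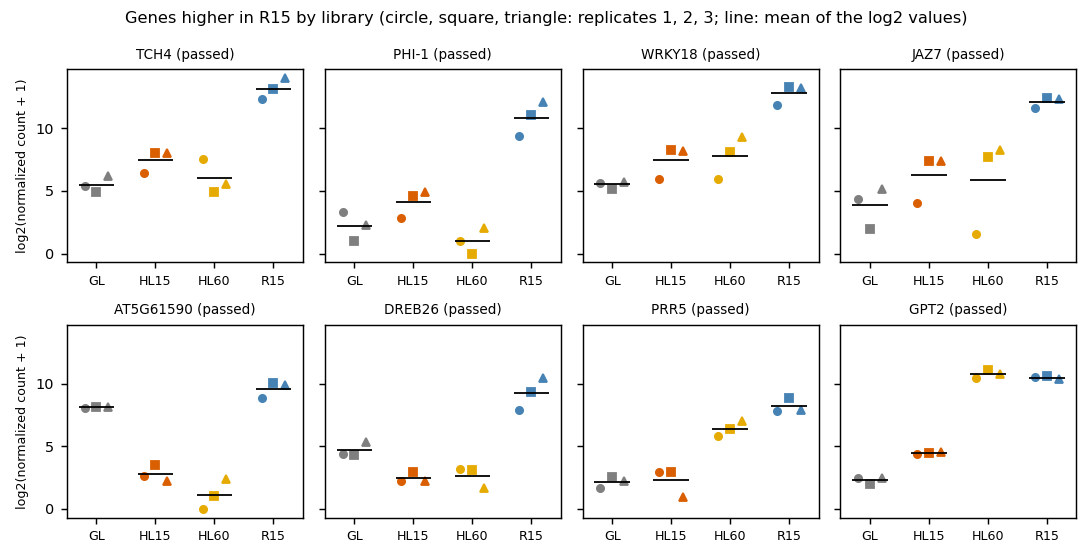
log2(normalized count + 1) of 8 genes that were higher in R15 than in HL15, for each GL, HL15, HL60 and R15 library, with 3 replicates per group as circle, square and triangle and a line at the mean of the log2 values. TCH4, PHI-1, WRKY18, JAZ7, AT5G61590 and DREB26 were higher in every R15 library than in every HL60 library, PRR5 was at 55.4 to 128 normalized counts in HL60 on its way to 227 to 461 in R15, and GPT2 was as high in HL60 as in R15.

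JAZ proteins repress jasmonate (JA) responses and are themselves induced by JA. Of 13 JAZ genes 10 rose and 1 fell, with a median log2 fold change of 2.78. In R15 against HL60 6 of them were higher and none lower, against 5.97% and 3.73% of all genes. JAZ7 was at 15.7, 164 and 169 in HL15, at 1.98, 205 and 307 in HL60 and at 3083, 5395 and 5141 in R15 (5.83, SE 1.38, limma adjusted p = 0.00311). All 3 R15 libraries lay above every HL15 and HL60 library. JAZ10 was at 12.2, 77.0 and 76.9 against 1100, 1628 and 1347 (4.96), and JAZ8 rose by 4.94. In HL60 JAZ10 was at 11.8, 694 and 1139, and JAZ10 did not pass against HL60 (2.63), whereas JAZ8, at 6.93, 42.7 and 43.3, was 4.40 higher in R15. JAZ11 fell from 123, 174 and 171 to 67.0, 68.7 and 55.9 (-1.26). For JAZ7 and JAZ10, HL15 replicate 1 was far below the other HL15 libraries, and without it the log2 fold changes of JAZ7, JAZ10 and JAZ8 were 4.72, 4.11 and 4.12.

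In JA synthesis 7 of 15 genes rose and none fell (median 1.39), but without HL15 replicate 1 the number was 4. In R15 against HL60, 3 of the 15 were higher and 1 was lower, against 5.97% and 3.73% of all genes. AOC3, an allene oxide cyclase, was at 81.3, 182 and 218 in HL15 and at 1852, 2483 and 2646 in R15 (3.95), and the lipoxygenase LOX4 at 522, 2970 and 2945 against 10747, 18203 and 14491 (3.09, and 2.26 without HL15 replicate 1). LOX3 and OPR3 were 2.89 and 2.91 higher, and OPR3 lost its call without HL15 replicate 1 (2.21, limma adjusted p = 0.0572). In HL60 LOX3 was at 1547, 15454 and 35605, OPR3 at 1293, 19129 and 28075 and AOC3 at 51.5, 306 and 643. HL60 replicate 1 was the lowest for each, and AOC3 was higher in every R15 than in every HL60 library. Of 10 genes of JA turnover 9 rose (median 3.76), led by AT2G38240 and by CYP94C1. CYP94C1 oxidizes the active hormone jasmonoyl-isoleucine and was at 29.1, 276 and 297 in HL15 and at 5238, 9137 and 8113 in R15 (5.75, and 4.67 without HL15 replicate 1). In HL60 it was at 34.6, 644 and 1173, and it was the only one of the 10 that was higher in R15 than in HL60. Of 16 output genes 11 rose and none fell (median 2.04), among them RAP2.6 (5.39), TPS04 (5.04) and the vegetative storage protein gene VSP1, at 122, 186 and 190 against 4332, 5017 and 3409 (4.68). RAP2.6 had very few counts in HL15, so its fold is uncertain, and its mean as given by the study was lower in R15 than in HL60. In HL60 VSP1 was at 185, 7921 and 11926, so R15 lay between these libraries. Of the 16 output genes 1 was higher and none lower in R15 than in HL60, which is near the 5.97% of all genes that were higher. The defensin gene PDF1.2 did not pass, at -0.67.

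Of 20 ERF factors 13 rose and 1, ERF8 (-1.07, and -0.88 without R15 replicate 3), fell, with a median log2 fold change of 2.91, or 2.73 with the 3 genes near 0 in HL15 set at their lower bound. After AT5G61590 the largest rises were those of ERF105 (4.58), ERF6 (4.43), CEJ1 (4.41) and ERF2 (3.91). ERF6 was at 26.8, 113 and 101 in HL15, at 24.7, 5.47 and 13.7 in HL60 and at 1334, 1381 and 1761 in R15. Without HL15 replicate 1 the values of ERF6, CEJ1 and ERF2 were 3.78, 3.40 and 3.05, and CEJ1 was at 5.01 without either HL15 replicate 2 or R15 replicate 1. ERF105 was at 6.87 and 3.73 without R15 replicates 1 and 2, and lost its call without R15 replicate 3 (3.14, limma adjusted p = 0.0537) and in a fit of the 6 libraries alone (adjusted p = 0.0692). Of 18 WRKY factors 9 rose and none fell (median 0.98). WRKY18, a pathogen-responsive WRKY factor, was at 61.2, 300 and 293 in HL15 and at 3760, 9951 and 9506 in R15 (5.33, and 4.57 without HL15 replicate 1), with 61.4, 275 and 616 in HL60, and WRKY54 rose by 2.89. WRKY33 was at 797, 1835 and 1850 against 1695, 1123 and 996, and did not pass (-0.17, interval -0.83 to 0.49).

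Zinc finger factors of the ZAT and AZF type were split, with 4 that rose and 2 that fell of 11 (median 0.93). AT3G53600 rose from 0, 6.78 and 4.71 to 48.1, 141 and 168 (4.90, and 3.99 without HL15 replicate 1), while ZAT6 fell from 553, 1009 and 1032 to 75.2, 127 and 141 (-2.90). Of 7 tandem CCCH genes (median 0.00) 3 rose, led by SZF1 (2.47), and TZF1 fell (-1.22). Among 10 genes known to respond to singlet oxygen or oxidative signals, 5 rose and none fell (median 1.29), led by BAP1, at 8.21, 21.7 and 16.0 in HL15 and 45.2, 187 and 298 in R15 (3.17, and 3.96 without R15 replicate 1). Of 26 genes of ROS scavenging enzymes 9 rose and 1 fell (median 0.44): GPX7 rose by 1.86, CSD2, the plastid copper/zinc superoxide dismutase, by 1.72, and CAT3 fell by 1.20. Of 25 genes of glutathione (GSH) metabolism 6 rose and 2 fell (median 0.23), GSTU4 with 3.34 and the transporter gene OPT4 with -2.08. The 2 that fell are near the 8.2% of all genes that were lower. In R15 against HL60 none of the 26 ROS scavenging genes was called (median 0.01). Of the 25 GSH genes none was higher and 1 was lower in that comparison (median 0.06).

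Most day and evening clock genes rose, while most morning clock genes were not called. Of 10 genes of the day and evening 8 rose and none fell, with a median log2 fold change of 1.55, and of 12 morning genes 4 fell and none rose (median -0.51). PRR5, a repressor of morning genes, was at 6.71, 6.78 and 0.94 in HL15, at 55.4, 82.1 and 128 in HL60 and at 227, 461 and 234 in R15 (5.90, SE 0.57, limma adjusted p = 1.63e-06). Without HL15 replicate 3, the lowest, its log2 fold change was 5.23. TOC1 was at 65.6, 131 and 154 against 353, 456 and 378 (1.83), LUX at 394, 425 and 416 against 1197, 1513 and 1166 (1.64), and ELF4 at 2.24, 2.71 and 4.71 against 19.0, 47.0 and 36.5 (3.01). In each of these genes every R15 library was above every HL15 library. In HL60 TOC1 was at 135, 131 and 172 and ELF4 at 3.96, 8.76 and 9.50, below every R15 library, whereas LUX overlapped with R15 and did not pass against HL60 (0.28).

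PRR9, a morning repressor, was at 5007, 4357 and 4383 in HL15 and at 507, 301 and 279 in R15 (-3.71), below its GL range of 1548 to 1995. RVE7 fell from 3267, 2396 and 2410 to 82.6, 107 and 38.0 (-5.24) and LNK1, a coactivator that works with RVE factors, from 6622, 6478 and 6723 to 2315, 2156 and 1844 (-1.66). RVE7 and PRR9 share 52.5% and 32.5% of their stretches with another gene, so their counts are uncertain. The central morning factors CCA1 (-0.36, interval -0.71 to -0.01) and LHY (-0.30, interval -0.65 to 0.05) did not pass the test. R15 leaves were taken later after the start of treatment than HL15 leaves, and the part of the time of day in these differences was not tested.

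The evening element AAAATATCT, known as a binding site of morning MYB factors in evening genes, is shown in capitals, on either strand (AGATATTTT on the other), in the 200 bases before the start of 3 of these genes. The sequences are from RefSeq for TAIR10.1, at chr5:8358547-8358746 (minus) for PRR5, chr5:24674763-24674962 (plus) for TOC1 and chr3:17182842-17183041 (plus) for LUX.
PRR5: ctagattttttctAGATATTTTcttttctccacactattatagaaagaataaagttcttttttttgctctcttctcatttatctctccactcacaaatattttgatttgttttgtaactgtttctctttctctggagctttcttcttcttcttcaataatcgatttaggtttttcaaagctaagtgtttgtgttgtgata
TOC1: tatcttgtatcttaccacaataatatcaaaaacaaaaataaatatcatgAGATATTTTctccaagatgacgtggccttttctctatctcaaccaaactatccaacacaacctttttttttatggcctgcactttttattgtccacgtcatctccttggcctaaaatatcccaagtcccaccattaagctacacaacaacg
LUX: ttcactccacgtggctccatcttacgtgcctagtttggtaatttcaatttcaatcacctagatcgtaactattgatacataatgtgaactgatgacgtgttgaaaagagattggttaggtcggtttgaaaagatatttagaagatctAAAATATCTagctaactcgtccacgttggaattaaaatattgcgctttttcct
The element was in the windows of 5 of the 10 day and evening genes, of 6 of the 43 genes at least 32-fold higher in R15 (14.0%) and of 2.99% of all tested genes with a window. It was in 4.28% of all genes called higher, in 3.05% of those called lower with a window and in 3 of the 44 genes at least 32-fold lower (6.82%). These shares were not tested.

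Of 18 light regulators and photoprotection genes 5 fell and 2 rose (median 0.00). BBX32, a B-box protein, was at 869, 1326 and 1203 in HL15, at 821, 947 and 729 in HL60 and at 50.1, 21.0 and 10.7 in R15 (-5.56, SE 0.37). HY5, the central bZIP factor of light signalling, was at 484, 571 and 622 against 187, 140 and 116 (-1.93), and the plastid sigma factor SIG5 at 6279, 7731 and 7580 against 2054, 2534 and 1359 (-1.90). In HL60 HY5 was at 818 to 909 and SIG5 at 5846 to 9806, so all 3 genes were high to the end of the HL exposure. ELIP2, an early light-induced protein, went the other way, with 2.24, 1.36 and 3.77 in HL15, 77.2, 46.0 and 39.0 in HL60 and 144, 187 and 164 in R15 (5.64).

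Of 31 photosystem and antenna genes 10 fell and 1, LHCB4.3 (1.35), rose, with a median log2 fold change of -0.52. Quantile normalization left 6 that fell and added 1 that rose. LHCB4.2, a minor antenna protein of photosystem II, was at 65726, 64161 and 63970 in HL15 and at 10413, 8901 and 8992 in R15 (-2.78, SE 0.13), and in HL60 at 11620, 15901 and 14109. In HL60 LHCB1.4 (-2.87) was at 10461, 18880 and 15324 and LHCB2.2 (-2.11) at 22665, 27782 and 25202, and they share 23.5% and 39.4% of their stretches with related genes. The RBCS genes for the small subunit of Rubisco did not pass, with values of -0.04 to 0.85. Of 12 flavonoid genes 8 rose and none fell (median 1.79, or 1.44 with the 3 genes near 0 in HL15 at their bound). Chalcone synthase, CHS, was at 285, 184 and 151 in HL15 and at 2958, 1706 and 2839 in R15 (3.60), and flavonol synthase, FLS1, at 36.1, 44.5 and 70.0 against 1038, 761 and 796 (4.12). In HL60 CHS was already at 412, 1703 and 2409 and FLS1 at 493, 470 and 503, and neither passed the test against HL60. Of 10 PIF and shade genes 2 rose and 3 fell (median 0.10, or 0.02 with genes near 0 at their bound). HFR1, a bHLH factor of shade and light signalling, fell from 67.2, 86.8 and 90.3 to 8.03, 9.90 and 15.1 (-2.81), while the shade marker ATHB2 rose from 107, 188 and 234 to 625, 573 and 497 (1.74).

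In abscisic acid (ABA) signalling, clade A PP2C phosphatases, which hold ABA signalling off, fell in 5 of 8 cases and rose in none (median -1.08), and the PYR/PYL receptors that inhibit them rose in 3 of 9 and fell in none (median 0.59). HAB1 was at 1691, 1663 and 1614 in HL15 and at 425, 458 and 362 in R15 (-2.0, SE 0.14), and HAI2 at 95.4, 134 and 117 against 18.0, 21.0 and 5.37 (-3.05). PYL5 was at 4.47, 10.8 and 3.77 against 48.1, 256 and 240 (4.42, and 5.20 without R15 replicate 1), and PYL4 rose by 2.62. Of 11 genes of ABA synthesis and catabolism 4 rose and 2 fell (median 1.11). Of the CYP707A genes, whose products break ABA down, CYP707A3 was at 18.0, 32 and 35.9 in HL15 and at 260, 392 and 1393 in R15 (4.20, and 3.49 without R15 replicate 3), whereas CYP707A4 fell from 437, 269 and 254 to 67.8, 55.3 and 24.4 (-2.75). In HL60 CYP707A3 was at 20.8, 6.59 and 6.35 and CYP707A4 at 620, 705 and 593. NCED5, an enzyme gene of ABA synthesis, rose by 4.03 from at most 0.68 counts. The main stress-induced synthesis gene, NCED3, did not pass, at 0.49.

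Among other hormones, 4 of 12 ethylene genes rose and none fell (median 0.56), all 4 of them ACS genes for the enzyme that makes the ethylene precursor. ACS6 was at 259, 366 and 332 in HL15 and at 1177, 1705 and 2524 in R15 (2.44). Of 8 type-A ARR genes, which are rapid cytokinin responses, 4 rose and none fell (median 1.10): ARR7 was at 58.2, 62.4 and 65.0 against 463, 391 and 386 (2.72) and ARR5 rose by 2.22. In HL60 ARR7 was at 658, 774 and 646, above every R15 library. Of the 8 ARR genes 7 were lower and none higher in HL15 than in GL (median -1.94, 4.66% of all genes lower). In R15 against HL60 1 was higher and none lower (median -0.02, 5.97% of all genes higher). Auxin response genes were mixed between R15 and HL15, with 7 of 20 that rose and 2 that fell (median 0.80). Of these 20, 9 were lower and none higher in HL15 than in GL, and 4 were higher and 2 lower in R15 than in HL60. SAUR9 rose from 0, 0.68 and 2.83 to 79.2, 29.7 and 40.8 (4.66), and SAUR16 fell from 342, 306 and 319 to 108, 60.6 and 60.2 (-2.12). Of 16 salicylic acid genes 3 rose and 2 fell (median -0.23). PR5 rose by 2.21 and ICS1, the synthesis gene, fell by 1.54, and without R15 replicate 2 the number that rose was 5. In R15 against HL60 7 of the 16 salicylic acid genes were higher and none lower (median 0.98), against 5.97% and 3.73% of all genes. Of 13 CBF and cold genes 9 rose and none fell (median 1.43, or 1.38 with 1 gene at its bound). COR15B was at 491, 432 and 514 against 3712, 4390 and 4321 (3.11), with 3538, 3686 and 4574 in HL60, and DDF1 rose by 3.48, whereas CBF2 and CBF3 did not pass (0.43 and 0.17).

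Genes that mark sugar starvation were mixed between R15 and HL15, with 7 of 22 that fell and 4 that rose (median -0.30). In HL15 against GL 8 of the 22 were lower and 1 was higher, against 4.66% and 4.79% of all genes. In R15 against HL60 9 were higher and 1 was lower, against 5.97% and 3.73% of all genes. ASN1, an asparagine synthetase gene repressed by sugar, was at 87.6, 96.6 and 58.6 in HL15 and at 4.82, 1.49 and 3.87 in R15 (-4.28), and DRM1 fell by 2.50. In HL60 ASN1 was already at 12.9, 4.25 and 6.15. The bZIP factor gene bZIP11 rose from 50, 42.7 and 33.9 to 280, 324 and 315 (2.84). TPS8 rose by 2.12, and only it and bZIP11 among the risen passed without HL15 replicate 1 or without R15 replicate 2. Of 9 genes in use as RT-qPCR references none was called (median -0.20), with log2 fold changes of -0.88 for UBQ10 to 0.46 for ACT2.

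The 2 light changes were also taken as steps of their own, each against the leaves that stood at its start. In the rise (HL15 against GL) 1939 genes changed (9.45%), 983 higher (4.79%) and 956 lower (4.66%), and in the drop (R15 against HL60) 1990 (9.7%), 1225 higher (5.97%) and 765 lower (3.73%). These steps share no library, so their changes could be compared. The change in the drop differed from that in the rise for 3279 genes (16.0%, the same limma fit and thresholds). Without HL15 replicate 1 the number was 3337, and without HL60 replicate 1 it was 3288. Of the genes higher after the rise, 242 (24.6%) were higher and 217 (22.1%) were lower after the drop. Of the genes lower after the rise, 183 (19.1%) were higher and 56 (5.86%) lower after the drop. Read from the drop, the 242 were 19.8% and the 183 were 14.9% of its higher genes, and the 217 were 28.4% and the 56 were 7.32% of its lower genes. Across the 20512 genes, which are not independent, Pearson's r of the changes was -0.11 and Spearman's rho -0.15.

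**Figure D4:**
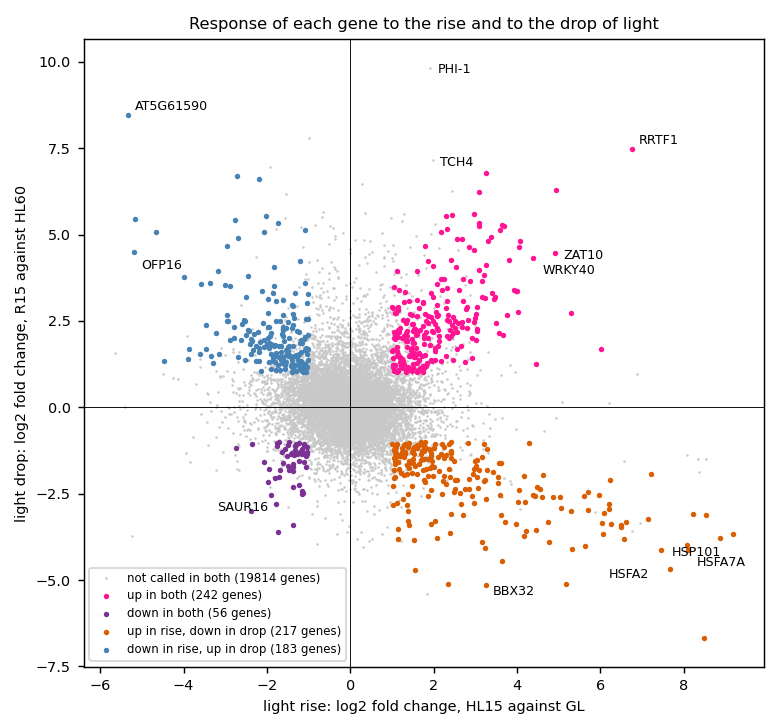
log2 fold change of 20512 genes after the light rise (HL15 against GL, horizontal) and after the light drop (R15 against HL60, vertical), with 242 genes higher after both in pink, 56 lower after both in purple, 217 higher then lower in orange and 183 lower then higher in blue. RRTF1, ZAT10 and WRKY40 lie at the upper right, and HSFA2, HSFA7A and HSP101 at the lower right.

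Genes that were higher after both the rise and the drop were led by RRTF1, ZAT10, WRKY40, ERF13, AT4G27654 and AT1G07135. RRTF1, an AP2/ERF factor of redox responses, was at 1.11, 1.99 and 1.88 in GL, at 84.2, 511 and 524 in HL15, at 0, 75.5 and 122 in HL60 and at 2595, 4952 and 4075 in R15. Its log2 fold change was 6.75 in the rise and 7.47 in the drop. ZAT10, a zinc finger repressor, had 4.90 and 4.45, and WRKY40 had 4.38 and 4.33. ERF13 had 3.69 and 5.23, AT1G07135, a glycine-rich protein, 4.08 and 4.82, and AT4G27654, of unknown function, 4.93 and 6.29. R15 was above HL15 in each, by 2.52 to 3.79 on the log2 scale. RRTF1 (3.72) lost that call without HL15 replicate 1 (limma adjusted p = 0.117), R15 replicate 2 (adjusted p = 0.0748) or R15 replicate 3 (adjusted p = 0.0684), and ZAT10 (2.65) without HL15 replicate 1 (adjusted p = 0.0586). Without that library AT4G27654 was 2.98 higher in place of 3.79.

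Genes lower after both were led by P1R1, PRE1, SAUR16, AT5G11550, AT5G54585 and BR6OX2. PRE1, a small HLH protein that promotes cell elongation, was at 680, 682 and 642 in GL, at 260, 148 and 187 in HL15, at 274, 312 and 265 in HL60 and at 75.2, 19.8 and 41.9 in R15, with changes of -1.78 in the rise and -2.80 in the drop. SAUR16 had -1.90 and -2.53, and P1R1, annotated as a transcription factor, -2.39 and -3.01. AT5G11550 had -1.81 and -2.05, and AT5G54585 -2.08 and -1.59. BR6OX2, the last enzyme of brassinolide synthesis, had -1.96 and -1.78. BR6OX2 was at 347, 262 and 164 in HL60, at 72.3, 77.9 and 66.9 in HL15 and at 72.2, 70.5 and 69.9 in R15, so R15 and HL15 overlapped (-0.03, 95% interval -0.56 to 0.50).

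Genes lower after the rise and higher after the drop were led by AT5G61590 (-5.34 and 8.46), AT5G19190 (-5.18 and 5.44), OFP16 (-5.20 and 4.49), AT3G06070 (-4.00 and 3.76), TPS8 (-2.90 and 3.51) and AT2G25200 (-2.95 and 4.68). AT5G19190, of unknown function, was at 1296, 1468 and 1462 in GL, at 35.8, 39.3 and 38.6 in HL15, at 39.6, 20.8 and 12.7 in HL60 and at 659, 1151 and 1298 in R15. OFP16, an ovate family protein, was at 353, 408 and 501 in GL, at 5.22, 15.6 and 13.2 in HL15 and at 200, 352 and 241 in R15. Both were far above their HL15 level 15 min after the drop, with R15 values below or at the lower end of GL. Genes higher after the rise and lower after the drop were led by AT1G71000 (8.49 and -6.68), MBF1C (5.17 and -5.11), HSFA2 (7.67 and -4.67), HSP101 (7.44 and -4.14), HSFA7A (8.09 and -4.13) and AT5G37670 (5.63 and -4.00).

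Promoter motifs were counted in each class. CGCGTT, known as the rapid stress response element, or AACGCG on the other strand, was in the window of 250 bases before to 50 after the start of 46 of the 242 genes higher after both steps (19.0%), against 3.81% of all tested genes with a window and 2.73% to 3.69% in the other 3 classes. The heat shock element was in 24.0% of the genes higher after both, in 28.6% of those higher then lower, in 10.4% of those lower then higher and in none of the 56 lower after both, against 11.6% of all. The W-box, TTGACC or TTGACT, was in 47.9% of the genes higher after both and in 16.1% to 30.6% of the other 3 classes, against 32.4% of all. The G-box, CACGTG, was in 16.6% of those higher then lower and in 4.92% to 10.7% of the other 3 classes, against 8.81% of all. These shares describe the classes and were not tested. The sequences before PHI-1, LOX4 and TCH2, which all rose from HL15 to R15, hold CGCGTT in capitals, read from RefSeq for TAIR10.1 at chr1:12851783-12851982 (plus), chr1:27308313-27308512 (plus) and chr5:14999620-14999819 (minus).
PHI-1: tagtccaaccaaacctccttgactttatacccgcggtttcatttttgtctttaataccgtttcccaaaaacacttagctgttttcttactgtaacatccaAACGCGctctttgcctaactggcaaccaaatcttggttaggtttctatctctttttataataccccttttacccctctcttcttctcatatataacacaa
LOX4: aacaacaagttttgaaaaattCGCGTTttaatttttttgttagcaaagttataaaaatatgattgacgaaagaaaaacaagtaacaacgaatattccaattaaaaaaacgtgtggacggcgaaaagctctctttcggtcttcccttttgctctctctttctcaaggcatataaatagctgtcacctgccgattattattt
TCH2: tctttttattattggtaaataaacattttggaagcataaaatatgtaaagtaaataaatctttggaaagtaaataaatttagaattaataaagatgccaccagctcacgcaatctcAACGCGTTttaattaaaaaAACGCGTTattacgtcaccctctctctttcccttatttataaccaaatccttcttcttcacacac
In TCH2 the motif stands on both strands at each of 2 places, where the matches overlap. LOX4 (2.81 and 2.91) and TCH2 (1.78 and 2.70) were higher after both steps, and PHI-1 was higher after the drop (9.82) and did not pass after the rise (1.92).

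**Figure D5:**
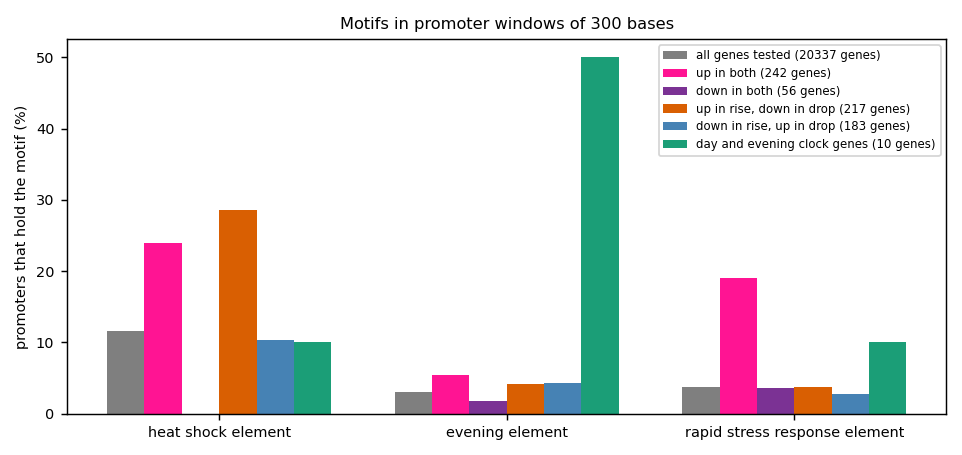
Share of genes, in percent, whose promoter window of 300 bases holds the heat shock element, the evening element or the rapid stress response element, for all 20337 tested genes with a window, the 4 classes of change and the 10 day and evening clock genes. The rapid stress response element stood in 19.0% of genes higher after both steps, the heat shock element in 28.6% of genes higher then lower, and the evening element in 5 of the 10 clock genes.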

How the data were processed

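Total RNA from leaves was sequenced in 15 libraries of 5 groups. Per the labels and the methods of the study, the authors quantified transcripts with Salmon (version 0.12) on TAIR10 cDNA and used DESeq2, and the deposited table holds estimated counts per gene divided by library size factors. These normalized counts, a signal that is not raw counts, were the unit of the deposited values. Only 59.95% to 63.3% of the values up to 200 reads came out as whole reads (tolerance 0.01), so no count test was run. Genes with a sum of 10 or more were fitted over all 15 libraries with limma (version 3.58.1, R 4.3.3) on log2(normalized count + 1), with a variance trend and Benjamini-Hochberg adjustment over 20512 genes. A gene was called at an adjusted p under 0.05 and a change of at least 2-fold. P-values rest on a spread per gene that was pooled over the 3 replicates of all 5 groups and drawn toward the variance trend. It is thus not the spread of R15 and HL15 alone. The study calls these replicates biological.

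The report names the 10 largest called rises and falls whose groups do not overlap and whose mean is at least 100, called members of each list, members against the direction of their list, members whose result a statement turns on, and the leading genes of each class of change. The members of the comparison, the lists and this rule were chosen with earlier results of these data known. Of 21593 gene identifiers, 21390 (99.1%) matched a locus tag of RefSeq TAIR10.1, which gave names, promoters and transcripts. Counts were called uncertain for 27 of 560 named or listed genes that shared 10% or more of their stretches of 31 bases with the transcripts of another gene. The fit was tested on simulated data for R15 against HL15, where it called 200 of 200 changed genes (4-fold) and 4 unchanged ones among 19910 genes. The simulated replicates had the same dispersion for every gene and no uneven library, and changed genes were not taken from those with few counts. The result therefore does not show how the fit handles genes with few counts or libraries as uneven as those of HL15.

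Alternatives were other pseudocounts (0.5 and 5), a mean of 10 or more or no filter, upper quartile scaling, quantile normalization, no variance trend, the 6 libraries alone, a test against a change of 1.5-fold, no fold minimum, a replicate block and leaving out each library. Averaging HL15 replicates 2 and 3 as 1 was chosen after seeing the data.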

Additional observations from a re-analysis of the deposited data

How the results depend on the processing

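With HL15 replicates 2 and 3 averaged as 1 sample, 2271 genes were higher and 1525 lower in R15 than in HL15, and 37 in place of 56 genes were lower after both steps, which was 35 with a pseudocount of 5. A test against 1.5-fold gave 1668 higher genes, 455 and 340 genes higher and lower in the rise, 677 and 365 in the drop, 1633 that differed between the steps, 78 higher after both, 9 lower after both and 176 in opposite directions (main value 400). With no fold minimum these were 5161 higher and 4698 lower in R15, 2343 and 2712 in the rise, 2389 and 2399 in the drop, 5989, 422, 217 and 1250. The cause was not tested beyond the stricter or looser call itself. Leaving out single libraries gave 2269 to 2482 higher and 1502 to 1724 lower genes in R15, 738 to 1096 and 740 to 1049 in the rise, 1000 to 1316 and 638 to 836 in the drop, 2796 to 3607 that differed between the steps, 164 to 310 higher after both, 39 to 70 lower after both and 347 to 428 in opposite directions. With the replicate number as a block, 2523 genes were higher and 1679 lower and none of the 290 named genes changed its call. Same-numbered libraries deviated together (correlation over 0.1) in 2 of 18 pairs checked, so the numbers were not taken as pairs. Both were pairs of HL15 with R15, at 0.14 for replicate 1 and 0.12 for replicate 2, whereas replicate 3 was at -0.00097. Of the 290 genes checked, 217 kept direction and call under all 18 settings, and BR6OX2, at -0.028, changed sign to 0.026 without HL15 replicate 2 and was at -0.083 without HL15 replicate 3. Leaving out HL15 replicate 1 changed the call of 32 genes and moved the fold of 33 by over 1.5 times, more than leaving out any other of the 6 libraries (10 to 25 and 3 to 15). The share of whole reads limits the table to tests on a log scale, and genes with few counts have folds that depend on the pseudocount.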
